A study of Mus musculus with 6 samples.

Results

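Integrins and laminins were described in proprioceptive sensory neurons of the mouse that supply either of a pair of ankle muscles. The genes were taken by symbol from the deposited table: every Itga gene, Itgb1 to Itgb8, and every Lama, Lamb and Lamc gene named with 1 digit. This gave 37 of the table's 36814 genes, namely 18 integrin alpha subunits, 8 integrin beta subunits and 11 laminin chains, each with a single entry. Both groups of neurons came from a Pv::YFP reporter line, in which parvalbumin neurons are marked, and both carried the tracer ctb-555. In 1 group the tracer had been put into the tibialis anterior (TA), which flexes the ankle, and in the other into the gastrocnemius (GS), which extends it. Injection was at postnatal day 0, and a sample holds 25 to 30 labelled neurons, collected manually at postnatal day 1. There were 3 pools per muscle. They are labelled as biological replicates. No label ties each pool to an animal of its own, so p-values measure only the spread between these pools.

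Integrins are cell surface receptors made of an alpha and a beta chain, and the alpha chain largely sets which ligand is bound. Laminins are secreted trimers of an alpha, a beta and a gamma chain, and they form the base of the basement membrane that surrounds axons, Schwann cells and the satellite glia of sensory ganglia. In sensory neurons, integrins that bind laminin are known for their part in axon growth, and the beta 1 subunit is the partner shared by most alpha subunits.

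Levels are given in RPKM, net reads scaled by gene length in kilobases and by a library total. Setting values of different genes side by side assumes that the annotated lengths hold and that coverage was even, which was not tested. Library values are listed in the order of replicates 1, 2 and 3. Net reads assigned to genes ranged from 7038296 to 21125960 per library. The 9 proprioceptor markers summed to between 755 and 778 RPKM in GS and between 659 and 726 RPKM in TA, without overlap. Among them, only Etv1 and Spp1 were higher in every GS library, Etv1 at 313, 321 and 323 RPKM for GS and 217, 264 and 202 RPKM for TA. Pvalb, the parvalbumin gene by which the neurons were marked, lay the other way. It was at 4.26, 10.4 and 31.3 RPKM for GS and 69, 93.5 and 47.8 RPKM for TA. Whrn also lay higher in every TA library, at 0.384, 0.0414 and 0.629 RPKM for GS and 4.97, 1.43 and 1.1 RPKM for TA. The groups overlapped for the remaining markers. The sum includes Spp1, described with the integrin ligands. The part of these differences in the results on integrins and laminins was not tested. GS replicate 2 and TA replicate 3 stood apart from the rest. GS replicate 2 held the highest value of 7 of the 10 members tested, where it was the highest library for 26% of all genes tested. In TA replicate 3, 11 skeletal muscle markers summed to 310 RPKM, against 0.269 to 5.12 RPKM in the other 5 libraries, and 7 connective tissue markers to 36.7 RPKM, against 1.03 to 9.32 RPKM. The 10 glial markers summed to between 90.2 and 181 RPKM in GS and between 133 and 194 RPKM in TA, and all 10 had a value in some library. In pools of cells, fewer cells of a type and less RNA per cell cannot be told apart.

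The transcripts of integrin subunits and laminin chains were compared by the muscle supplied. By RPKM, the predominant alpha transcript was Itga2 in each of the 3 GS libraries and Itga6 in each of the 3 TA libraries. Itgb1 was the predominant beta transcript in all 6. The alpha order rests on the scaling by length, which was 13978 bases for Itga4 and 4214 bases for Itga2. In net reads Itga4 exceeded Itga2 in every GS library, and exceeded Itga6 in TA replicate 3 (2329 against 2102). Itga2 and Itga4 had higher values in every GS library than in any TA library, and Itga7 had slightly higher values in every TA library than in any GS library, though not after median centring or quantile normalization. Of the 37 members, 10 had a mean of at least 1 RPKM and were tested. None was called over all genes tested (limma on log2(RPKM + 1), adjusted p under 0.05), where 0.305% of 10828 genes were called, 0.175% towards TA and 0.129% towards GS. At an unadjusted p under 0.05, 1 member was higher in TA and 2 were higher in GS, beside 10.4% of all genes tested, 8.30% and 2.12% by direction. Values did not overlap between the muscles for 1 member towards TA and 2 towards GS, beside 13.1% and 3.48% of all genes tested (16.6% in either direction). A member with a mean under 1 RPKM entered no test, and the nearest on either side of that limit were Lama4 at 0.784 RPKM and Itga3 at 1.04 RPKM.

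**Figure D1:**
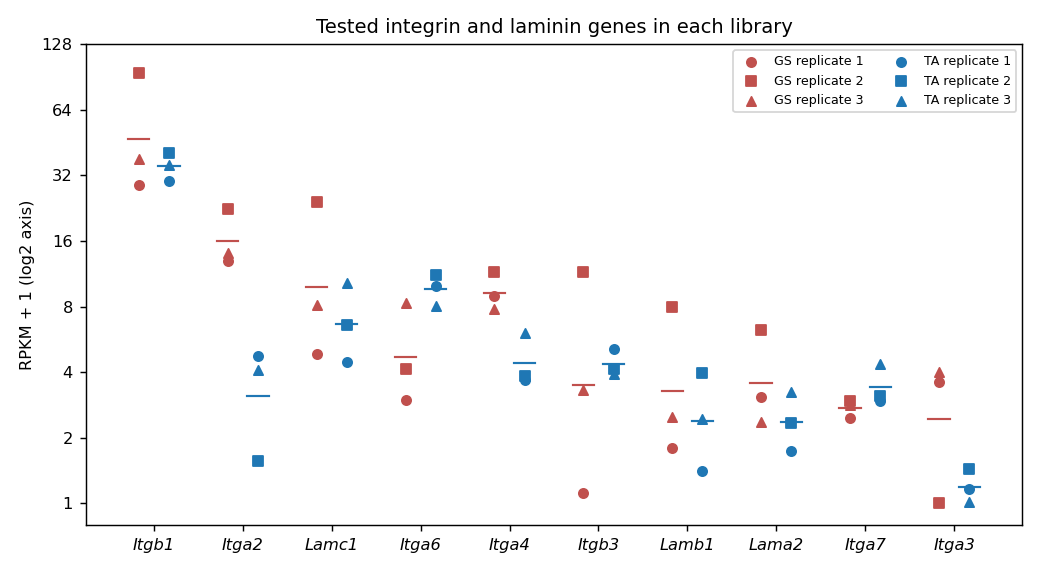
RPKM + 1 on a log2 axis for the 10 tested members in each library, with GS in red, TA in blue, the marker shape giving the replicate and each bar the mean on the log scale. Itga2 and Itga4 sit higher in all 3 GS libraries than in any TA library, and the Itgb1 and Lamc1 values of GS replicate 2 stand above the other 5.

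Itgb1, the common beta chain, was the most abundant member by far (ENSMUSG00000025809, chromosome 8, 131209554 to 131257100, plus strand, mm9). The gene read 27.9, 93.1 and 37.1 RPKM across GS pools, against 29.0, 39.3 and 34.8 RPKM across TA pools. The groups overlapped, and GS replicate 2 alone was high. Its mean ranked 594 among the 10828 genes tested, and its log2 fold change, TA minus GS, was -0.42 ± 0.43 (SE), with a limma adjusted p of 0.775. Without GS replicate 2 the log2 fold change was 0.08. Itgb1 made up 89.6% to 98.9% of the summed beta RPKM in GS and 85.7% to 87.7% in TA.

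Itgb3, the beta chain that pairs with the alpha V and alpha IIb chains, was the only other beta subunit with a mean of at least 1 RPKM (chromosome 11, 104469370 to 104531790, plus strand, mm9). The gene read 0.113, 10.5 and 2.32 RPKM across GS pools, against 4.11, 3.14 and 2.94 RPKM across TA pools. The TA pools were alike, while the GS pools ran from 11 net reads in replicate 1 to 1216 in replicate 2. The log2 fold change was 0.32 ± 0.73 with a limma adjusted p of 0.902. It was 1.18 without GS replicate 2 and -0.50 without GS replicate 1.

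Itga2 encodes the alpha chain of the collagen receptor alpha 2 beta 1 (ENSMUSG00000015533, chromosome 13, 115626124 to 115722249, minus strand, mm9). Its values were 12, 21.4 and 13.1 RPKM in GS replicates 1, 2 and 3, resting on 843, 1780 and 930 net reads. In TA they were 3.75, 0.559 and 3.09 RPKM, resting on 241, 31 and 429 net reads. Every GS pool lay above every TA pool. The means were 15.5 ± 5.15 RPKM in GS and 2.46 ± 1.68 RPKM in TA (SD, n = 3), a 6.29-fold difference. The log2 fold change was -2.36 ± 0.50, or -2.60 relative to the median of 0.24 of all genes tested, with an unadjusted limma p of 0.000737 and an adjusted p of 0.127. It ranged from -2.66 to -1.86 when single libraries were left out.

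Itga4 encodes the alpha chain of a receptor for fibronectin and VCAM (chromosome 2, 79095583 to 79173280, plus strand, mm9). The gene read 7.91, 10.5 and 6.78 RPKM across GS pools, against 2.67, 2.84 and 5.05 RPKM across TA pools. All GS values again lay above all TA values, with means of 8.40 ± 1.90 and 3.52 ± 1.33 RPKM (SD, n = 3), a 2.39-fold difference. The log2 fold change was -1.08 ± 0.41, with an unadjusted limma p of 0.0250 and an adjusted p of 0.420. The unadjusted p was 0.0510 with the replicate block and ran from 0.0218 to 0.0922 when single libraries were left out. The gene overlaps Cerkl on the opposite strand, and the handling of shared reads was not stated.

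The stretches before the start sites of Itga2 and Itga4, the pair with higher values in every GS pool, are shown with that of their common partner Itgb1. Each is the 250 bases before the start in RefSeq on build GRCm38.p6, written 5′ to 3′ on the gene's strand, and RefSeq entries were matched for 23 of the 37 members. The windows are chr13:114932101-114932350 (minus strand) for Itga2, chr2:79255176-79255425 (plus strand) for Itga4 and chr8:128685404-128685653 (plus strand) for Itgb1. Capitals mark matches to the motifs searched on both strands, the ETS core CCGGAA, the RUNX core TGTGGT, the GC box GGGCGG and the TATA box TATAAA.
Itga2: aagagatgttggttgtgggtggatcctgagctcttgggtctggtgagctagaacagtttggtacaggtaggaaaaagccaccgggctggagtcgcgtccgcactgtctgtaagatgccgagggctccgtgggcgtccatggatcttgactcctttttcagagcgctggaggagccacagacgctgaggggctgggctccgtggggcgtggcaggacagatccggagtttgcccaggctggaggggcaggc
Itga4: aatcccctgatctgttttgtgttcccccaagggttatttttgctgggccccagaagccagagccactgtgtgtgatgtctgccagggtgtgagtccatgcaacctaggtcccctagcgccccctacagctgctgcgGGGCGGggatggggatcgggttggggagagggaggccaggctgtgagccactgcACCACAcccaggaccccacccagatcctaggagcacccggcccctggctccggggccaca
Itgb1: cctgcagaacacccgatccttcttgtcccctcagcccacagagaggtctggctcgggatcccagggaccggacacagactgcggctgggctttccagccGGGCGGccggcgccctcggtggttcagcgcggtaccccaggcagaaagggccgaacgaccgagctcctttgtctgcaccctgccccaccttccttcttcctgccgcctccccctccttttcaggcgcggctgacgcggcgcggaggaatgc
The Itga2 window held none of the 4 motifs, the Itga4 window held 1 GC box and 1 RUNX match on the opposite strand, and the Itgb1 window held 1 GC box. Among 32851 windows of the same length, 32.7% held the GC box, 14.0% the RUNX core, 12.4% the TATA box and 12% the ETS core. The bases G and C made up 60.8%, 64% and 68% of the Itga2, Itga4 and Itgb1 windows, beside a median of 52.4% over all windows. A match is a run of letters and not a shown site of binding.

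Itga3, Itga6 and Itga7 were the alpha chains classed here as laminin-binding, each with beta 1, and all 3 passed the filter on low values. Each chain was placed in 1 class, so binding of laminin by other alpha chains is not covered. Itga6 (chromosome 2, 71583673 to 71696473, plus strand, mm9) read 8.90, 10.1 and 7.06 RPKM across TA pools, against 1.97, 3.15 and 7.28 RPKM across GS pools. The groups overlapped through GS replicate 3, which lay just above TA replicate 3. Means came to 8.68 ± 1.52 RPKM (TA) against 4.13 ± 2.79 RPKM (GS; SD, n = 3), a 2.10-fold difference. The log2 fold change was 1.04 ± 0.46, with an unadjusted limma p of 0.0480 and an adjusted p of 0.477. That unadjusted p was close to 0.05 and rose to 0.0983 with median centring, 0.0942 with quantile normalization and 0.0704 with the replicate block, and it ran from 0.00966 to 0.154 when single libraries were left out. Its gene span overlaps 4 other annotated genes.

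Itga7, a laminin receptor chain best known from muscle, read 1.95, 2.10 and 3.36 RPKM across TA pools, against 1.46, 1.94 and 1.82 RPKM across GS pools (chromosome 10, 128370869 to 128395333, plus strand, mm9). All TA values lay above all GS values, but TA replicate 1 and GS replicate 2 differed by little. The highest value was in TA replicate 3, the library with the muscle markers. The log2 fold change was 0.32 ± 0.44 with a limma adjusted p of 0.829. When each library was centred on its median, or with quantile normalization, the groups overlapped, and under the latter the log2 fold change was -0.02. Of the other TA values, 1.95 and 2.10 RPKM, the lower was close to the highest GS value, 1.94 RPKM. The part of muscle RNA in the Itga7 values was not tested.

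Itga3 read 2.60, 0 and 2.99 RPKM across GS pools, against 0.161, 0.439 and 0.0159 RPKM across TA pools (chromosome 11, 94905788 to 94938115, minus strand, mm9). A pair of GS pools held 248 and 289 net reads, the other was listed at 0, and the 3 TA pools held 50 net reads together. The log2 fold change was -1.03 ± 0.61 with a limma adjusted p of 0.606. Without GS replicate 2, the pool listed at 0, it was -1.67, and the groups then did not overlap. That pool alone made the groups overlap, so their separation without it was fixed in advance. Within the laminin-binding alpha chains, Itga3 and Itga6 thus had fold changes of opposite sign.

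Shares within a library do not depend on how the library was scaled, though they do depend on the gene lengths used. Itga2 made up 44.3%, 53.3% and 38.2% of the summed alpha RPKM in GS replicates 1, 2 and 3 and 18.2%, 2.67% and 14.4% in TA replicates 1, 2 and 3. For Itga6 the shares were 7.27%, 7.84% and 21.3% in GS and 43.2%, 48.1% and 32.9% in TA. Neither gene's shares overlapped between the muscles, though the RPKM of Itga6 did. The shares of Itga7, Itgal and Itga1 did not overlap either, each higher in TA, while those of Itga4 overlapped. For Itgal the nearest shares were 0.461% in GS replicate 3 and 0.709% in TA replicate 3, on 17 and 32 net reads. The rate of such separation over other genes was not counted. The ratio of Itga2 to Itga6 was 1.79 to 6.80 in GS and 0.0555 to 0.437 in TA. By the classes used here, the 4 collagen-binding alpha chains held 38.8% to 55.5% in GS and 7.29% to 22.2% in TA. The 3 laminin-binding ones held 12.7% to 35.4% in GS and 48.7% to 60.3% in TA. The 4 chains classed as binding the RGD peptide held 0.199% to 2.55% in GS and 2.94% to 6.68% in TA. Each of these 4 had a mean under 1 RPKM. The alpha 4 and alpha 9 class and the leukocyte class overlapped. A chain classed as collagen-binding is not thereby shown to bind no laminin. Shares in 1 library sum to 100%, so a higher share of Itga2 lowers the shares of all others. The summed alpha RPKM was 27.0, 40.2 and 34.2 in GS and 20.6, 20.9 and 21.4 in TA. With 3 pools per muscle an exact permutation test of a share could not go below a two-sided p of 0.10, and none was made.

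**Figure D2:**
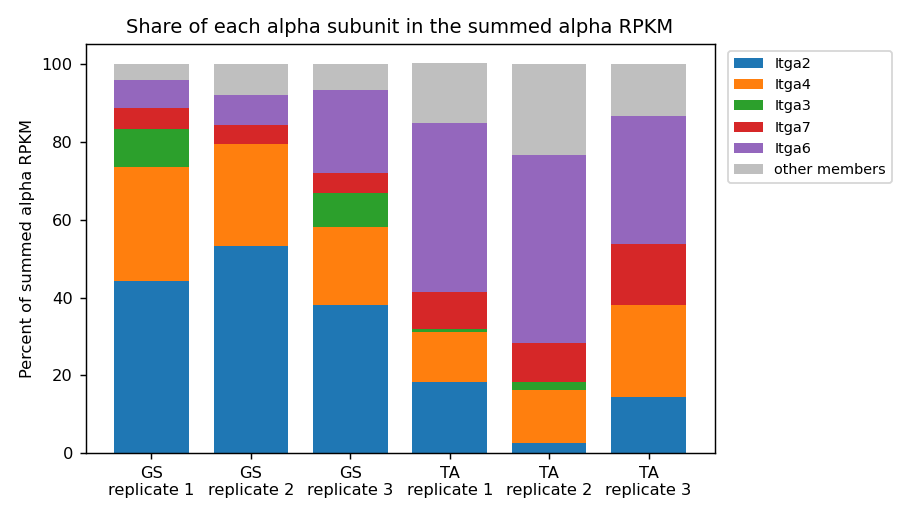
Share of the summed alpha subunit RPKM held by Itga2, Itga4, Itga3, Itga7, Itga6 and the other 13 alpha genes together in each of the 6 libraries, in percent. Itga2 is 38.2% to 53.3% of the bar in GS and 2.67% to 18.2% in TA, and Itga6 is 7.27% to 21.3% in GS and 32.9% to 48.1% in TA.

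Known receptor pairs were described by the RPKM of the scarcer subunit in each library. Of 24 known pairs, 3 were at 1 RPKM or more in all 6 libraries, namely Itga4, Itga6 and Itga7, each with Itgb1. A further 3 reached 1 RPKM in some libraries: Itga2 with Itgb1 in 5, Itga3 with Itgb1 in 2 and Itga9 with Itgb1 in 1. The other 18 reached it in none. With the geometric mean of the subunits in place of the scarcer one, 6 pairs were at 1 RPKM or more in all 6 libraries, the added ones being Itga1, Itga2 and Itgav with Itgb1. The means of Itga7 with Itgb1 changed order, from 2.47 RPKM in TA and 1.74 RPKM in GS to 9.14 and 9.35 RPKM. In all 12 pairs with Itgb1 the alpha chain was the scarcer transcript in every library, so by the scarcer subunit the order of these pairs follows the alpha values above. Itgb1 came to 1.03 to 2.32 times the summed alpha RPKM in GS and 1.41 to 1.88 times in TA.

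Subunits of the remaining pairs were scarce. Itgav, the alpha chain of vitronectin and latent TGF-beta receptors, was at most 0.827 RPKM, so Itgb3 had no abundant partner among its known alpha chains, Itga2b being at most 0.571 RPKM. Itga1, another collagen receptor chain, ran from 0.207 to 0.968 RPKM, with overlapping groups. Itga9, a receptor chain for tenascin and osteopontin, ran from 0.00780 to 1.03 RPKM. Itgb8, which with Itgav activates latent TGF-beta, read 0.190, 0.316 and 0.396 RPKM across GS pools, against 0.385, 0.323 and 0.239 RPKM across TA pools. Itga8 and Itga10 each had a value below 0 in 1 library and were left out of every test for that reason as well as for their low mean. Itga11 rested on 1 net read in all.

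Integrin chains of leukocytes were found with at most traces of their beta partners. Itgb2, the beta chain that Itgal, Itgam, Itgax and Itgad need, was listed at 0 in all 6 libraries, as were Itgam, Itgax and Itgad. Itgal, the lymphocyte chain that binds ICAM, read 1.21, 2.17 and 0.152 RPKM across TA pools, against 0, 0 and 0.158 RPKM across GS pools, without any Itgb2. The 7 leukocyte and erythroid markers, 6 of them with a value, summed to 0.0229 to 5.11 RPKM in GS and 2.17 to 26.3 RPKM in TA, and Aif1 was listed at 0. In the highest sum, that of TA replicate 3, the haemoglobin genes Hbb-b1 and Hba-a1 stood at 13.6 and 10.2 RPKM. Cd68 was at 1.91 RPKM in that library, where Itgal was lowest among the TA pools, and listed at 0 elsewhere. Ptprc, a pan-leukocyte marker, was at 0.0104 RPKM in TA replicate 3 and listed at 0 elsewhere. Itgae, known from epithelial T cells, was at 1.91 RPKM in GS replicate 2 and at most 0.257 RPKM elsewhere, and its partner Itgb7 rested on 2 net reads in TA replicate 2.

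With no filter on the mean, 30 members had a value above 0 and none below it, and 4 lay higher in every TA library than in any GS library, where 11.5% of 18604 genes did. Towards GS there were 2, Itga2 and Itga4, beside 2.43% of all genes. Besides Itga7 the members towards TA were Itgb5, Itgb6 and Lama3, singled out after their values were seen. Itgb6, an epithelial beta chain that pairs with Itgav, had 5, 182 and 226 net reads in TA replicates 1, 2 and 3 and 0, 0 and 1 in GS. Itgb5, a vitronectin receptor chain, had 8, 16 and 17 net reads in TA and 0, 0 and 2 in GS. Lama3 had 38, 63 and 138 net reads in TA and 15, 0 and 13 in GS. All 3 had a mean under 1 RPKM.

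Among the laminin chains, Lamc1, Lamb1 and Lama2 had a mean of at least 1 RPKM, which are the gamma, beta and alpha chains of laminin 211, known from Schwann cells and muscle. Lamc1, the gamma chain of most laminins, read 3.85, 23.2 and 7.17 RPKM across GS pools, against 3.44, 5.55 and 9.22 RPKM across TA pools (chromosome 1, 155066052 to 155179916, minus strand, mm9). Lamb1, the widespread beta chain, read 0.804, 6.94 and 1.48 RPKM across GS pools, against 0.409, 2.97 and 1.44 RPKM across TA pools. Lama2, whose loss causes a muscular dystrophy with nerve involvement, read 2.08, 5.25 and 1.36 RPKM across GS pools, against 0.741, 1.34 and 2.23 RPKM across TA pools. All 3 chains were highest in GS replicate 2, and their groups overlapped.

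None of the 3 passed the limma test. The log2 fold changes were -0.56 ± 0.59 for Lamc1, -0.46 ± 0.64 for Lamb1 and -0.60 ± 0.52 for Lama2, with adjusted p of 0.779, 0.834 and 0.731. Without GS replicate 2 they were 0.08, 0.18 and -0.19. In that library the 10 glial markers summed to 181 RPKM, below the 194 RPKM of TA replicate 3, and the glial gene Fabp7 was at 71.2 RPKM there and between 18.1 and 64.4 RPKM elsewhere. The part of glial RNA in the laminin values was not tested. Lamc1 held 48.2% to 62.4% of the summed laminin RPKM over the 6 libraries.

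**Figure D3:**
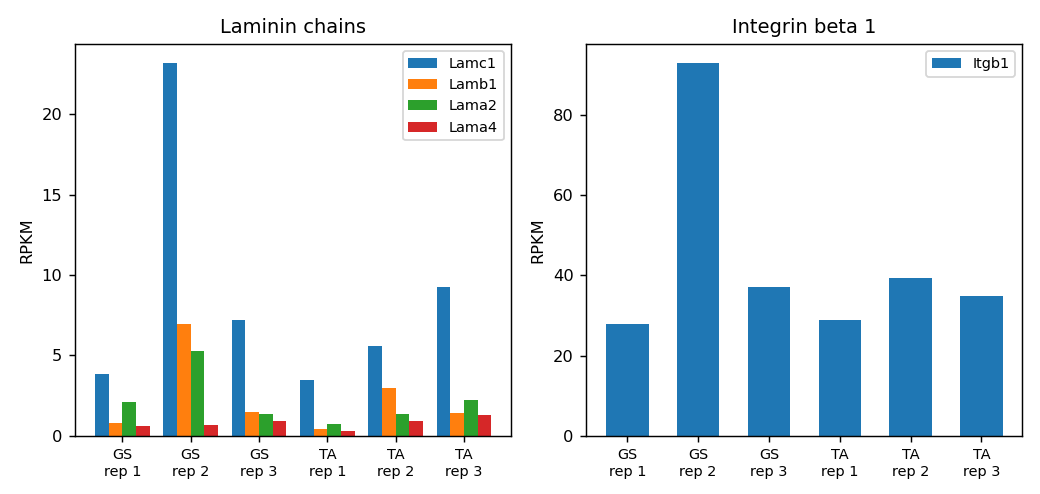
RPKM of the laminin chains Lamc1, Lamb1, Lama2 and Lama4 (left) and of Itgb1 (right) in each library, as bars from 0. GS replicate 2 is the highest library for Lamc1 (23.2), Lamb1 (6.94), Lama2 (5.25) and Itgb1 (93.1), and not for Lama4.

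Lama4, an alpha chain of vessels and peripheral nerve, lay just under the filter at 0.601, 0.672 and 0.946 RPKM in GS and 0.277, 0.900 and 1.31 RPKM in TA. Lamb2, the beta chain concentrated at neuromuscular synapses, was at most 0.139 RPKM, and Lama1 at most 0.399 RPKM. Lama5 was at 0.356 RPKM in TA replicate 3, on 134 net reads, and listed at 0 elsewhere. Lamb3 rested on 2 net reads in TA replicate 1, and Lamc3 was listed at 0 in all 6 libraries. Of 13 known trimers, described by their scarcest chain, none was at 1 RPKM in all libraries. Lama2 with Lamb1 and Lamc1 reached it in 4, and Lama4 with Lamb1 and Lamc1 in 1. By the geometric mean of the chains, Lama2 with Lamb1 and Lamc1 was above 1 RPKM in all 6 libraries, and its TA mean was 2.3 RPKM in place of 1.06 RPKM.

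**Figure D4:**
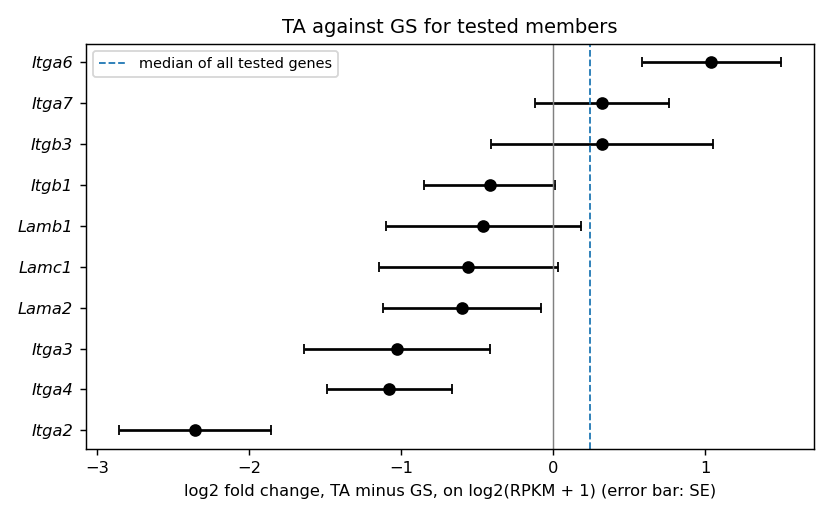
Log2 fold change (TA minus GS, from log2(RPKM + 1)) for the 10 tested members, with SE bars and a dashed line at the median of all genes tested (0.24). Itga2 is lowest at -2.36 and Itga6 highest at 1.04, and 7 of the 10 lie below 0. Of those 7, Itgb1, Lamc1 and Lamb1 lie above 0 without GS replicate 2.

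Of the 10 members tested, 3 had a log2 fold change above 0 and 7 below, with a median of -0.51. Over all genes tested 7149 were above and 3679 below, with a median of 0.24. Without GS replicate 2, Itgb1 (0.08), Lamc1 (0.08) and Lamb1 (0.18) moved above 0. Itga2, Itga4, Itga3 and Lama2 stayed below it, and Itgb3, Itga6 and Itga7 stayed above. On the GS side, the authors' deposited table listed Itga2, with a ratio of GS over TA of 7.15, a p of 0.000505 and an adjusted p of 0.0705. The authors' deposited table also listed Itga3, with a ratio of 15.1 and an adjusted p of 0.457. On the TA side, the authors' deposited table listed Itgb6, Itgb4 and Lama5, with adjusted p of 0.119, 0.733 and 0.818. Those tables give 1 value per muscle. In the libraries, Itgb4, the beta chain of hemidesmosomes, had 13, 0 and 134 net reads in TA replicates 1, 2 and 3 and none in GS. The reads of Lama5, all of them, and of Itgb4, for the greater part, were thus in TA replicate 3, the library with 310 RPKM of muscle markers, as were all 61 net reads of Itga5, the fibronectin receptor chain. The part of that RNA was not tested.

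Genes that act with integrins and laminins were counted from 4 lists. Inside the cell, none of 21 adaptor and signalling genes tested was called with limma at an adjusted p under 0.05, beside 0.305% of all genes tested. The groups did not overlap for 2 genes towards TA and 0 towards GS, beside 13.1% and 3.48% of all genes tested. Beside 8.3% of all genes tested, 1 was higher in TA at an unadjusted p under 0.05. This was Tln2, a talin that links integrin tails to actin, which read 18.5, 16.2 and 14.6 RPKM across TA pools, against 7.29, 5.26 and 10.7 RPKM across GS pools. Its adjusted p was 0.399. The unadjusted limma p of 0.02 became 0.0527 with median centring and ran from 0.0111 to 0.0758 when single libraries were left out. Every TA pool lay above every GS pool for Tln2. The list's median log2 fold change was -0.0041, below the 0.24 of all genes. The most abundant members were Parvb, a parvin, with means of 37.9 and 42.1 RPKM in TA and GS, Tns1, a tensin, with 38.4 and 21.7 RPKM, and Ilk, the integrin-linked kinase, with 24 and 20 RPKM. Rsu1, of the same complex as Ilk, averaged 3.99 ± 0.965 RPKM (TA) against 1.91 ± 0.541 RPKM (GS; SD, n = 3), also without overlap.

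Of the other laminin receptors, none of 8 dystroglycan complex and related genes tested was called with limma, with a list median of 0.57. At an unadjusted p under 0.05, 1 was higher in TA, beside 8.3% of all genes tested. The groups did not overlap for 1 gene towards TA and 2 towards GS, beside 13.1% and 3.48% of all genes tested. Bcam, the Lutheran glycoprotein that binds laminin alpha 5, read 61.0, 31.7 and 17.5 RPKM across TA pools, against 6.11, 2.27 and 12.2 RPKM across GS pools. All TA pools lay above all GS pools, the log2 fold change was 2.31 ± 0.58 and the adjusted p was 0.205. Its ligand chain Lama5 had reads in TA replicate 3 only. Dag1, dystroglycan itself, read 13.7, 7.79 and 16.1 RPKM across TA pools, against 2.09, 10.2 and 14.8 RPKM across GS pools. Sgce, a sarcoglycan, read 5.58, 3.13 and 8.41 RPKM across TA pools, against 0.194, 1.64 and 5.50 RPKM across GS pools. Both overlapped and were highest in TA replicate 3, the library with the muscle markers, whose part was not tested. Sgcb, another sarcoglycan, averaged 13.3 ± 0.470 RPKM (TA) against 20.0 ± 6.54 RPKM (GS; SD, n = 3), with all GS values above all TA values.

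Of 5 basement membrane genes tested besides laminins, none was called with limma, with a median of 0.12. None had an unadjusted p under 0.05, beside 10.4% of all genes tested. The groups did not overlap for 1 gene, towards TA, beside 13.1% of all genes tested. Agrn, the synapse organizer agrin, read 4.11, 4.63 and 3.77 RPKM across TA pools, against 2.46, 1.13 and 2.22 RPKM across GS pools, without overlap and with an adjusted p of 0.537. Sparc, a collagen-binding matrix protein, had means of 12.7 and 22.2 RPKM in TA and GS, and Nid1, which joins laminin to collagen IV, 3.04 and 4.62 RPKM. Col4a2, a chain of collagen IV, read 0.604, 2.59 and 3.29 RPKM across TA pools, against 1.14, 0.559 and 0.206 RPKM across GS pools. It was highest in TA replicate 3, where the muscle and connective tissue markers were high, and their part was not tested.

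Among 9 other integrin ligands tested, Spp1 was called, higher in GS, beside 0.129% of all genes tested (median of the list 0.11). The groups did not overlap for 1 gene towards TA and 1 towards GS, beside 13.1% and 3.48% of all genes tested. Spp1 encodes osteopontin, a ligand of integrins with alpha V, alpha 4 or alpha 9, and its limma adjusted p of 0.0150 ranged from 0.0305 to 0.0854 when single libraries were left out. The gene read 59.0, 72.0 and 38.5 RPKM across GS pools, against 2.78, 6.31 and 6.97 RPKM across TA pools. The call was lost without GS replicate 1 (adjusted p of 0.0576) and without TA replicates 1, 2 and 3 (0.0843, 0.0854 and 0.0685). It was also lost with no filter on the mean (0.159) and without GS replicate 2 and TA replicate 3 together (0.115). Its log2 fold change was -3.21 ± 0.41 and ran from -3.45 to -2.87 when single libraries were left out. Itga4 lay higher in GS as well, while Itga9 and Itgav overlapped. Edil3, a matrix protein that binds alpha V integrins, had means of 21.7 and 34.8 RPKM in TA and GS, Cyr61 5.76 and 4.27 RPKM, and Tnr, tenascin R, 1.66 and 0.399 RPKM.

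**Figure D5:**
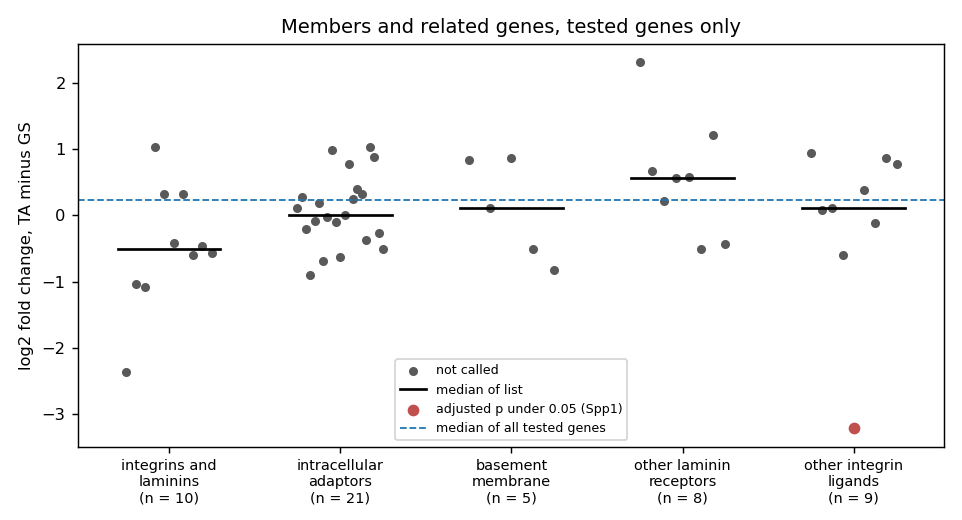
Log2 fold change, TA minus GS, of the tested integrins and laminins (10 genes) and of the 4 related lists (21, 5, 8 and 9 genes), with list medians as bars and the median of all genes tested as a dashed line. Spp1 is the only gene of these lists called at an adjusted p under 0.05, and Bcam lies highest at 2.31.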

How the data were processed

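RNA from 6 pools of neurons was sequenced. Bowtie 0.12.9, DESeq and the build mm9 are listed in the submitters' processing notes; the counting program was not stated. Net reads and RPKM were deposited per library, per the file headers. Both had values below 0 in 683 genes, so no count model was used. The authors' deposited lists give an RPKM per muscle, a ratio (fold) and a p-value. Genes with a value below 0 were left out, 1 entry was kept per symbol, and genes entered with a mean of at least 1 RPKM. The test was limma 3.58.1 (R 4.3.3), fitted to log2(RPKM + 1) by muscle alone, with a mean-variance trend and Benjamini-Hochberg adjustment over 10828 genes. The pseudocount of 1 understates folds of low genes. The fit was tested on simulated data. Gene ends are the last base. Members with a mean of at least 1 RPKM were named. From each related list, called genes, the 3 with the smallest p and the 3 with the highest mean were named. The members and lists were chosen with earlier results of these data known. The values of 1 member are not reported here. Alternatives were another pseudocount, other filters, other scalings, a replicate block, the geometric mean of subunits and leaving out libraries.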

Additional observations from a re-analysis of the deposited data

How the results depend on the processing

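No member was called under any of the 14 alternatives run; Itga2 came nearest, with a limma adjusted p of 0.0586, and kept its direction in all. Genes called over the whole table, 19 higher in TA and 14 higher in GS, became 7 and 6 with a pseudocount of 0.1, 0 and 0 with no filter, 9 and 8 with a minimum mean of 5 RPKM, 11 and 17 with median centring, 16 and 19 with quantile normalization, 8 and 8 with the replicate block, and 1 and 0 without GS replicate 2 and TA replicate 3, which was chosen after seeing the data. More genes were thus called towards TA than GS as scaled by the authors, and fewer under both other scalings. Leaving out single libraries gave 1 to 19 towards TA and 1 to 10 towards GS. Non-overlapping members towards TA numbered 1, against 4 with no filter and 0 with a minimum of 5 RPKM. They numbered 0 with median centring, 0 with quantile normalization, 3 without both libraries and 1 to 2 without single ones. Towards GS they numbered 2, against 4 without both libraries and 2 to 3 without single ones. Fewer libraries separate more readily, and the share of all genes was not counted for those smaller sets. Their counts thus cannot be set beside the 13.1% and 3.48% of all genes, which rest on all 6 libraries. Replicate numbers are shared by the muscles, but the deviations of same-numbered samples correlated at -0.0744, -0.0185 and -0.135, so the numbers were not taken to pair samples, and the replicate block changed no call of a member. Direction reversed without GS replicate 2 for Itgb1 (range without single libraries -0.77 to 0.08), Lamc1 (-1.07 to 0.08) and Lamb1 (-0.89 to 0.18), for Itgb1 (0.07) and Lamb1 (0.16) without both libraries, for Itgb3 without GS replicate 1 (-0.50 to 1.18, and 1.26 without both libraries) and for Itga7 (-0.02) with quantile normalization. Of related genes it reversed for Cyr61 (-0.10 centred, -0.20 quantile, -0.11 without both libraries, and -0.56 to 0.82 without single ones), Dag1 (-0.03 to 1.15), Ilk (-0.02 centred and -0.07 to 0.46) and Parvb (-0.33 to 0.19). The cause was not tested.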

Other observations

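Itga1 and Itga2 lie on the minus strand of chromosome 13 with 26037 bases between them, and the ratio of Itga2 to Itga1 was 16.2, 24.0 and 63.1 in GS replicates 1, 2 and 3 and 5.26, 0.577 and 4.43 in TA replicates 1, 2 and 3.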
